A study of Homo sapiens with 8 samples.

Results

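Cleavage factor Im (CFIm) was followed at the RNA level through its 3 subunit genes, NUDT21, CPSF6 and CPSF7, together with OGFOD1 and BBS2, the genes that come next to NUDT21 on one side of it on chromosome 16. These 5 genes were chosen by name and position out of 78932 gene identifiers in the deposited tables. No threshold was set on their values, but earlier results of these data were known. All 5 passed the filter on low counts and belonged to the 12618 genes tested. The libraries came from HCT116, a human colorectal cancer line, in which NUDT21 carries a dTAG, a degron that marks the fused protein for destruction when a dTAG ligand is present. In 4 libraries the cells had received the solvent DMSO with JTE-607, and in 4 they had received the dTAG ligand dTAGV1 with JTE-607. JTE-607 inhibits CPSF73 (the product of CPSF3), the nuclease that cuts pre-mRNA at poly(A) sites. Both groups therefore carry the tag and the inhibitor, and the comparison asks what the ligand adds in cells that also received JTE-607. Doses, treatment times, the end of NUDT21 that was tagged and the number of clones are not given in the sources used here. The labels number replicates 1 to 4 in each group without calling them separate cultures, so p-values measure only the spread between these libraries, which may be technical.

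CFIm binds UGUA motifs in nascent RNA, usually ahead of the cleavage site, and favours the use of distal poly(A) sites. NUDT21 encodes its RNA-binding small subunit, which forms a dimer, and CPSF6 and CPSF7 encode alternative large subunits that attach to that dimer and recruit the rest of the cleavage machinery. OGFOD1 encodes a prolyl hydroxylase that modifies a ribosomal protein, and BBS2 encodes a subunit of the BBSome, the coat complex that carries membrane proteins to and from cilia. The ligand acts on the tagged protein, and protein was not measured here, so the RNA counts of NUDT21 do not check how far the protein was removed.

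NUDT21 and OGFOD1 are transcribed away from each other out of a short shared stretch, which is shown because the pair gave unequal results. Between the starts of their principal GENCODE 29 transcripts lie 114 bases (GRCh38, chr16:56451376-56451489), which no GENCODE 29 exon covers. The stretch was read from the RefSeq promoter sequences of GRCh38.p14, which held an entry for all 5 genes, and its letters were the same in the NUDT21 and OGFOD1 entries. It is written on the plus strand, with capitals on matches to CCAAT (or ATTGG, its reverse complement) and to GGGCGG.
NUDT21-OGFOD1 stretch: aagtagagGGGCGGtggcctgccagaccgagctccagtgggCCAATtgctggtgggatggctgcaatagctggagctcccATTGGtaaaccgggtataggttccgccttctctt
Both strands were searched, and the matches did not overlap each other. In this stretch CCAAT matched 2 times and GGGCGG 1 time, while TATAAA and CCGGAAGT did not match. Over the 250 bases ahead of each RefSeq start, CCAAT matched in 32% of 35116 promoters, GGGCGG in 42.6%, TATAAA in 10.7% and CCGGAAGT in 3.42%. The 250 bases ahead of NUDT21 held 3, 1, 0 and 1 matches in that order. Those ahead of OGFOD1 RefSeq starts 1 and 2 held the same numbers, and those ahead of start 3 held 1, 0, 0 and 0. Between the RefSeq start of NUDT21 and start 1 of OGFOD1 lie 191 bases, more than the 114 printed. These are matches of letters only.

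The annotated 3′ ends of the CFIm genes are shown because CFIm itself acts at such sites and the library kit reads them. Each line gives 30 bases on the strand of the gene, ending with the last AATAAA or ATTAAA (the poly(A) signal) within 50 bases of an annotated transcript end. Capitals mark that signal and any TGTA, the DNA form of UGUA. The second CPSF6 line belongs to a shorter transcript, in which the last A of a TGTA is also the first base of the signal. The same holds for a CPSF7 transcript that ends at 61402731, whose line is not shown.
NUDT21 (chr16:56429150-56429179, minus strand): ctttttttattttattgtcatttcAATAAA
CPSF6, distal end (chr12:69274312-69274341, plus strand): gcatggtatttatctTGTAttgaaAATAAA
CPSF6, proximal end (chr12:69269897-69269926, plus strand): tgattacaatagaTGTAgtgtTGTAATAAA
CPSF7 (chr11:61402671-61402700, minus strand): tttTGTAacaaaatatttttaaatAATAAA
BBS2 (chr16:56484401-56484430, minus strand): ttcaaatagattatctactttttcATTAAA
In the last 100 bases TGTA occurred 1 time in NUDT21, 80 bases before the end, and 1 time at the distal end of CPSF6, 32 bases before it. The proximal end of CPSF6 held 3, and the principal transcripts of CPSF7 and BBS2 held 2 each. The principal OGFOD1 transcript held no TGTA in its last 100 bases and neither signal in its last 50. Over 19577 protein-coding genes, 51.6% had a TGTA in the last 100 bases of their longest transcript, 18.9% had at least 2, and 74.3% had AATAAA or ATTAAA in the last 50. The deposited counts add up all reads of a gene. Use of one annotated end over another, in CPSF6, CPSF7 or the other genes, was therefore not measured here.

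Counts of the 8 libraries on the strand of the gene, called sense counts, summed to 3447842 to 4291256. Reads given to no gene made up 56.7% to 62.8% of a library. All 7 epithelial markers were detected, and they summed to 1723 to 2014 CPM with DMSO and 1532 to 1648 CPM with dTAGV1 (CPM are the counts of a gene scaled to a library of 1000000 counts, with library sizes adjusted by the TMM method). Within that list the mean of KRT19 was 786 with DMSO and 499 with dTAGV1, and that of ELF3 was 45.7 and 178 CPM. The 3 leukocyte markers summed to at most 1.37 CPM and the 2 endothelial markers to at most 2.93. The 3 fibroblast markers summed to 15.9 to 20.8 CPM with DMSO and 11.2 to 15.9 with dTAGV1, nearly all from COL1A1, while COL1A2 had at most 1 count in any library.

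All 3 CFIm subunit genes fell with dTAGV1, and to unequal degrees. NUDT21 fell most, to 25.9% of its DMSO level, CPSF6 fell to 64.5% and CPSF7 to 80.4%. BBS2 fell to 57.5%, and OGFOD1 did not pass the test. The comparison changed much of the transcriptome, and this sets the scale for these calls. Of all tested genes, 57.9% passed an adjusted p of 0.05 in either direction and 28.5% passed it with lower values (edgeR quasi-likelihood test with Benjamini-Hochberg adjustment). Of the 5 genes, 4 were called, all lower, and in the same 4 the groups did not overlap, which held for 50.9% of tested genes, with 25.1% lower and 25.8% higher with dTAGV1. The median log2 fold change was -0.63 over the 5 genes and 0.01 over all tested genes.

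**Figure D1:**
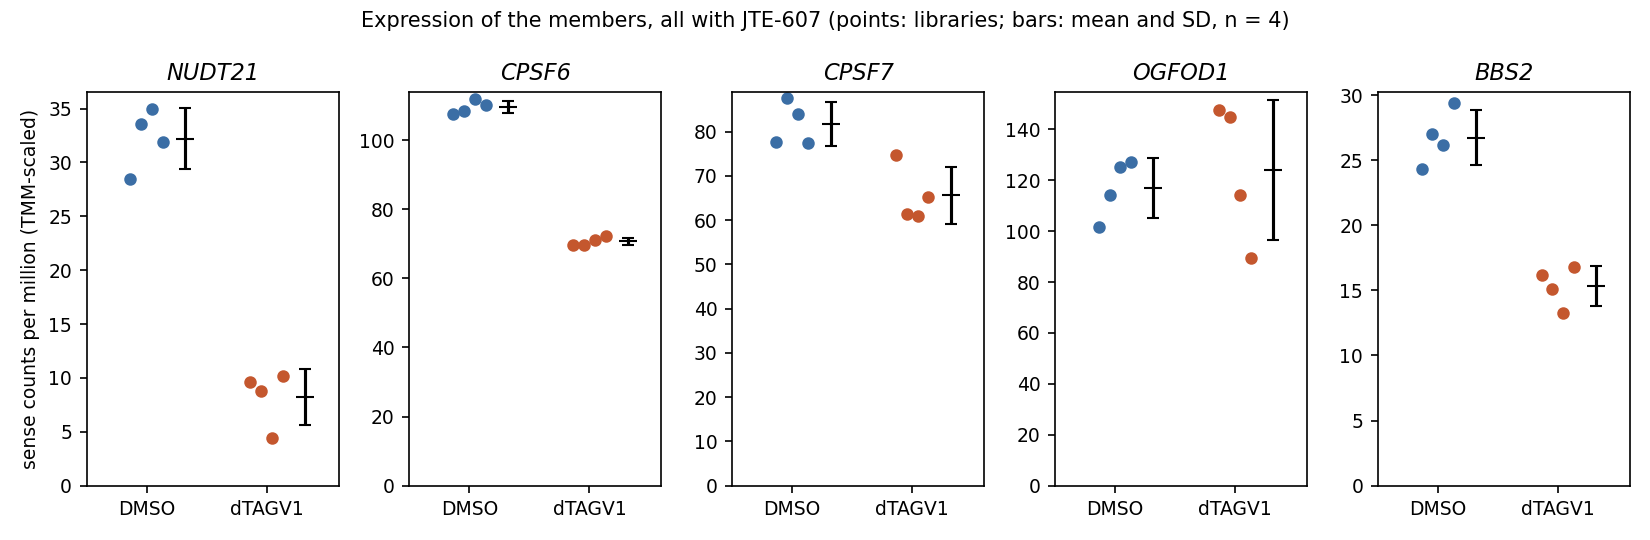
Sense CPM in each library (vertical axes, each from 0) for the 5 genes, with DMSO+JTE-607 in blue and dTAGV1+JTE-607 in orange. Points are libraries in the order of their replicate numbers, and black marks are the mean and SD (n = 4). The groups are apart for NUDT21, CPSF6, CPSF7 and BBS2, and the dTAGV1 libraries of OGFOD1 spread on both sides of the DMSO libraries.

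NUDT21 is a protein-coding gene (ENSG00000167005) on the minus strand of chromosome 16, from 56429133 to 56452199 in GRCh38. It had 28.4, 33.5, 35.0 and 31.9 CPM in DMSO replicates 1 to 4. The dTAGV1 libraries in the same order had 9.64, 8.76, 4.42 and 10.2 CPM. Every dTAGV1 library was thus below every DMSO library, and dTAGV1 replicate 3 was the lowest. Its log2 fold change was -1.95 ± 0.18 (SE) with 95% limits from -2.32 to -1.58 (edgeR, Benjamini-Hochberg adjusted p = 1.36e-09). Only 188 of the tested genes, or 1.49%, had a lower log2 fold change. The lowest library rested on 15 counts, with a counting interval (exact Poisson, 95%) of 8.4 to 24.7. PCR copies may be among these reads, so such an interval covers counting error only. The spread between dTAGV1 libraries was 31.7% of the mean, where counting alone gives 18.2%. With DMSO these figures were 8.73% and 8.92%. Scaled to all reads in the table of a library, those given to no gene included, NUDT21 had 13.5 ± 1.14 CPM with DMSO and 3.17 ± 1.09 CPM with dTAGV1 (SD, n = 4 each). In bulk RNA a lower level in every cell and a loss in part of the cells cannot be told apart.

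CPSF6 is protein-coding (ENSG00000111605) and lies on the plus strand of chromosome 12, from 69239537 to 69274358. It had 108, 109, 112 and 110 CPM in DMSO replicates 1 to 4. It had 69.7, 69.8, 71.0 and 72.1 CPM in dTAGV1 replicates 1 to 4. The libraries of each group lay closer together than counting error predicts, at 1.68% of the mean against 4.84% with DMSO and 1.62% against 6.25% with dTAGV1. Its SD across 4 libraries therefore understates the error of a single value. The log2 fold change was -0.63 ± 0.08 (SE) with 95% limits from -0.80 to -0.47 (edgeR, Benjamini-Hochberg adjusted p = 2.74e-07). A lower log2 fold change was found in 17.5% of tested genes. Exons of CPSF6 share 62 bases with MIR1279 on the other strand, which had 0 counts over the 8 libraries.

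CPSF7 is protein-coding (ENSG00000149532) and lies on the minus strand of chromosome 11, from 61402641 to 61430031. Its level was 77.6, 87.5, 84.0 and 77.4 CPM in DMSO replicates 1 to 4. The dTAGV1 libraries in order had 74.8, 61.3, 61.0 and 65.3 CPM. The groups did not overlap, but dTAGV1 replicate 1 came close to the lowest DMSO library. The log2 fold change was -0.32 ± 0.09 (SE) with 95% limits from -0.51 to -0.12 (edgeR, Benjamini-Hochberg adjusted p = 0.00519). Of the tested genes, 30.4% had a lower one. Inside the span of CPSF7 and on its strand lies AP003108.4, and the exons of the pair share 0 bases in GENCODE 29. AP003108.4 had 15 to 29 counts a library and did not pass the test, with a log2 fold change of -0.29 (edgeR, Benjamini-Hochberg adjusted p = 0.332).

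BBS2 (ENSG00000125124; chromosome 16, 56466836 to 56520283, minus strand, protein-coding) had 24.3, 27.0, 26.1 and 29.4 CPM in DMSO replicates 1 to 4. Values of 16.2, 15.1, 13.3 and 16.8 CPM followed in dTAGV1 replicates 1 to 4, all below the DMSO libraries. Its log2 fold change was -0.80 ± 0.14 (SE) with 95% limits from -1.09 to -0.51 (edgeR, Benjamini-Hochberg adjusted p = 3.27e-05). Spread between libraries was near counting error in both groups, at 7.94% against 9.78% with DMSO and 10.1% against 13.4% with dTAGV1.

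OGFOD1 (ENSG00000087263; chromosome 16, 56451490 to 56479100, plus strand, protein-coding) had 102, 114, 125 and 127 CPM in DMSO replicates 1 to 4. It had 148, 145, 114 and 89.4 CPM in dTAGV1 replicates 1 to 4, so that 2 libraries lay above all DMSO libraries and 1 lay below them. The log2 fold change was 0.08 ± 0.14 (SE, edgeR, Benjamini-Hochberg adjusted p = 0.658). Its 95% interval of -0.22 to 0.38 is compatible with a ratio of 0.857 to 1.3, so a change within these bounds was not excluded. The spread between dTAGV1 libraries was 22.2% of the mean where counting gives 4.76%. Reads given to no gene made up 62.8%, 62.8%, 59.0% and 56.7% of dTAGV1 replicates 1 to 4, the same order as OGFOD1. In DMSO replicates 1 to 4 they made up 59.0%, 59.2%, 58.0% and 58.7%, and there OGFOD1 was lower in the 2 libraries with the higher share. The part of this share in the spread of OGFOD1 was not tested. Without dTAGV1 replicate 1 or 2, the log2 fold change of OGFOD1 was -0.03 or -0.02.

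**Figure D2:**
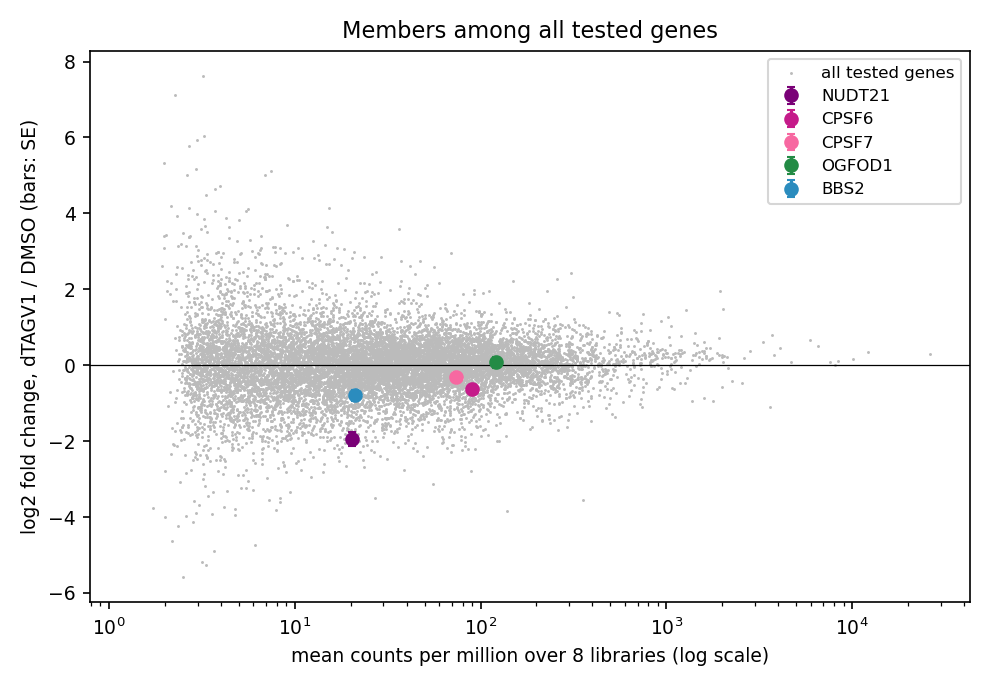
Log2 fold change with dTAGV1 (vertical axis) against mean CPM over the 8 libraries (horizontal axis, log scale) for the 12618 tested genes in grey and the 5 genes in colour, with standard errors as bars. NUDT21 lies at -1.95, with 1.49% of tested genes below it, and OGFOD1 lies near 0.

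Since the kit gives reads near transcript 3′ ends, CPM was not divided by gene length, and levels of different genes are set side by side on that scale. With DMSO the order was OGFOD1 at 117 ± 11.8, CPSF6 at 110 ± 1.84, CPSF7 at 81.6 ± 5.00, NUDT21 at 32.2 ± 2.81 and BBS2 at 26.7 ± 2.12 CPM (SD, n = 4 each). OGFOD1 and CPSF6 overlapped in that order, as did NUDT21 and BBS2. Within each DMSO library, however, NUDT21 was above BBS2, at 1.08 to 1.34 times its counts. With dTAGV1 the levels were 124 ± 27.6 for OGFOD1, 70.7 ± 1.14 for CPSF6, 65.6 ± 6.45 for CPSF7, 15.3 ± 1.55 for BBS2 and 8.25 ± 2.62 for NUDT21 (SD, n = 4 each). There CPSF6 and CPSF7 overlapped, while NUDT21 was below BBS2 in every library, at 0.333 to 0.606 times its counts.

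Ratios of sense counts within a library show whether members changed by unequal amounts, and they do not depend on how libraries are scaled. All 6 ratios examined separated the groups completely. With 4 libraries against 4, each reached an exact permutation p of 0.0286 (2-sided), the smallest this design allows, and also 0.0286 after Benjamini-Hochberg adjustment over the 6. The ratios reuse the same genes, so they are not 6 separate results. In 50.9% of single tested genes the groups did not overlap either, and the share over ratios of other genes was not measured.

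The balance of the large subunits shifted away from CPSF6. In the DMSO libraries there were 1.24 to 1.42 CPSF6 counts for each CPSF7 count, and in the dTAGV1 libraries 0.932 to 1.16. On the log2 scale the ratio went from 0.43 ± 0.09 to 0.11 ± 0.15 (SD, n = 4 each), a difference of -0.31 ± 0.08 (SE).

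NUDT21 fell relative to both large subunits. Its counts were 0.264 to 0.313 of those of CPSF6 with DMSO and 0.0622 to 0.141 with dTAGV1, a log2 difference of -1.38 ± 0.28 (SE). Against CPSF7 they went from 0.366 to 0.416 with DMSO down to 0.0725 to 0.156 with dTAGV1, a log2 difference of -1.69 ± 0.25 (SE).

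NUDT21 and OGFOD1, which share the stretch printed above, changed by the most unequal amounts among the 6 ratios. The ratio of NUDT21 to OGFOD1 counts was 0.250 to 0.294 with DMSO and 0.0387 to 0.114 with dTAGV1, a log2 difference of -2.07 ± 0.32 (SE). NUDT21 also fell more than BBS2, by a log2 difference of -1.21 ± 0.21 (SE). OGFOD1 held 4.18 to 4.79 times the counts of BBS2 with DMSO and 5.32 to 9.58 times with dTAGV1, a log2 difference of 0.86 ± 0.20 (SE).

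**Figure D3:**
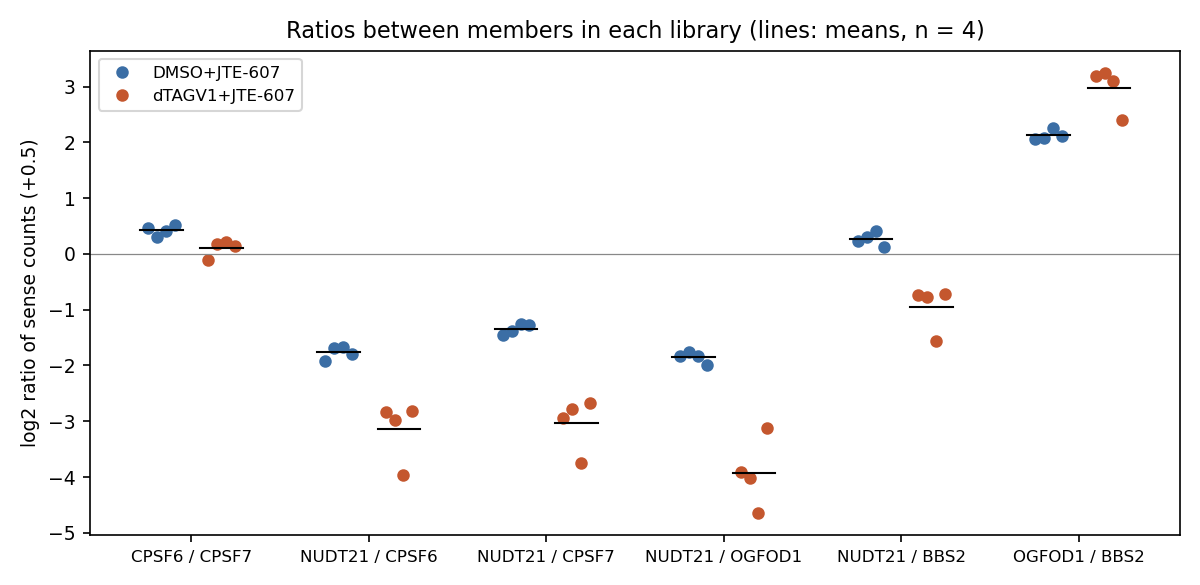
Log2 ratio of sense counts of 2 genes (0.5 added to each count) in every library, with DMSO+JTE-607 in blue, dTAGV1+JTE-607 in orange and group means as lines (n = 4). The groups are apart in all 6 ratios, and dTAGV1 replicate 3 is the lowest point in each of the 4 ratios with NUDT21.

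Along chromosome 16, NUDT21, OGFOD1 and BBS2 lie in a row and did not change alike. NUDT21 and BBS2, both on the minus strand, fell, while OGFOD1, on the plus strand between their starts, did not pass the test. Whether change went with strand was not tested. The spans of NUDT21 and OGFOD1 overlap by 710 bases through a NUDT21 transcript with a start further upstream, and their exons share 0 bases.

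**Figure D4:**
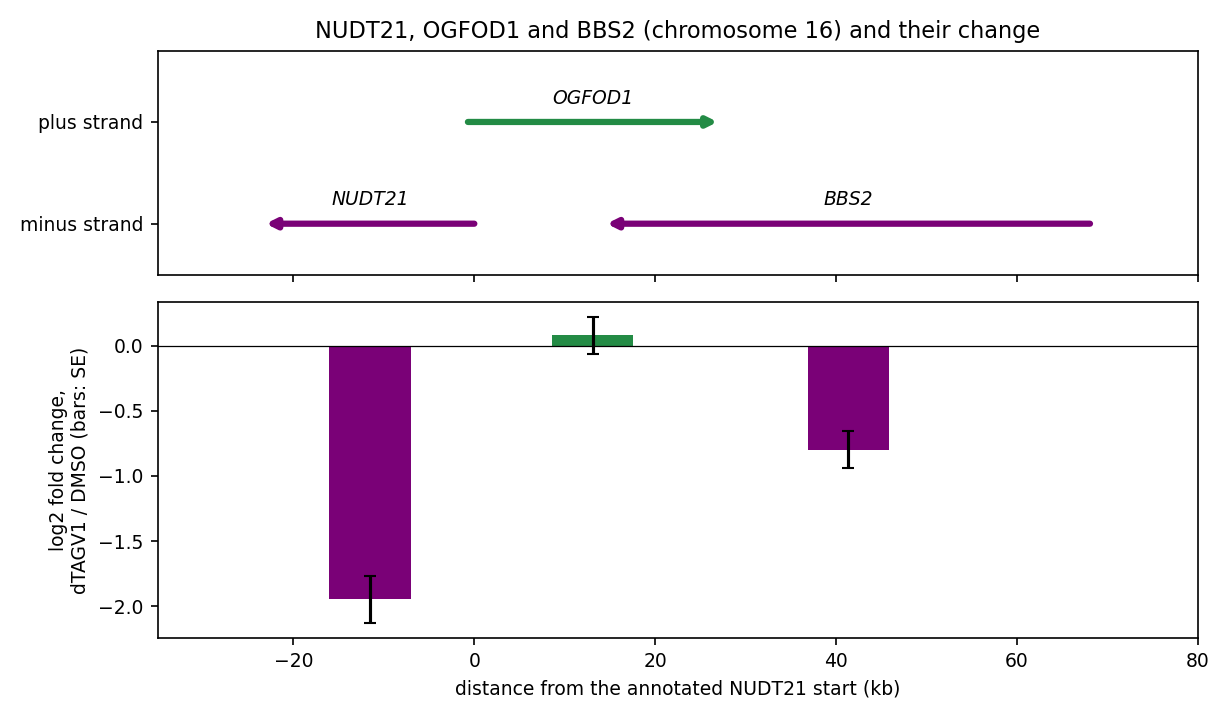
NUDT21, OGFOD1 and BBS2 with arrows pointing in the direction of transcription (upper panel), and their log2 fold change with standard error (lower panel). The horizontal axis is distance in kb from the annotated NUDT21 start furthest upstream (56452199). That start is not the one of the principal transcript and lies inside the OGFOD1 span. The genes on the minus strand lie below 0, at -1.95 and -0.80, and OGFOD1 lies within 1 standard error of 0.

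Genes around the large subunits were measured too. Within 100 kb of CPSF6 only YEATS4 passed the filter, and its log2 fold change of -0.03 did not pass the test (edgeR, Benjamini-Hochberg adjusted p = 0.802). Within 100 kb of CPSF7, 8 genes passed the filter, of which 3 rose and 3 fell, with log2 fold changes from -0.42 to 0.53, where 57.9% of all tested genes were called. Among these SDHAF2, named after its values were seen, starts head to head with CPSF7 on the other strand. SDHAF2 had a log2 fold change of 0.32 ± 0.10 (SE, edgeR, Benjamini-Hochberg adjusted p = 0.00721), against -0.32 for CPSF7.

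Reads on the strand opposite to a gene were counted separately and differed among the 5 genes. NUDT21 had 0 opposite-strand counts in all 8 libraries, which allows up to 3 counts in a library. CPSF6 had 1 count in DMSO replicate 1, 1 in dTAGV1 replicate 1 and 0 elsewhere. CPSF7, OGFOD1 and BBS2 had enough for the test. In the fit over 3324 genes, 48.4% of the opposite-strand counts differed between the groups in either direction and 24% were higher with dTAGV1.

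In order of replicate number, the opposite-strand counts of OGFOD1 were 10, 21, 4 and 19 with DMSO, and 27, 23, 15 and 34 with dTAGV1. The groups overlapped, while in 43.7% of the genes tested on that strand they did not. The log2 fold change was 0.84 ± 0.32 (SE, edgeR, Benjamini-Hochberg adjusted p = 0.0307). This call was lost with DESeq2, without a filter on low counts, and when any 1 of DMSO replicates 1 and 3 and dTAGV1 replicates 1 and 4 was left out. Without DMSO replicate 3, the library with 4 counts, the log2 fold change was 0.56, over 1.5 times smaller (edgeR, Benjamini-Hochberg adjusted p = 0.141).

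BBS2 had the highest share of opposite-strand counts of the 5 genes, at 11.7% to 21.2% of its counts on both strands with DMSO and 14.9% to 31.5% with dTAGV1. BBS2 shares 220 exonic bases with OGFOD1 on the other strand, and reads of OGFOD1 there count as opposite-strand reads of BBS2. The opposite-strand counts of BBS2 were 24, 29, 13 and 24 with DMSO and 10, 23, 16 and 25 with dTAGV1. Their log2 fold change was -0.30 ± 0.29 (SE) with 95% limits from -0.90 to 0.29, which did not pass the test (edgeR, Benjamini-Hochberg adjusted p = 0.412). CPSF7 had 5, 17, 9 and 11 opposite-strand counts with DMSO and 19, 16, 11 and 13 with dTAGV1. Its log2 fold change of 0.47 ± 0.35 (SE) with 95% limits from -0.23 to 1.18 did not pass either (edgeR, Benjamini-Hochberg adjusted p = 0.272). Single libraries moved both values by over 1.5 times. CPSF7 was at 0.24 without DMSO replicate 1 and 0.73 without DMSO replicate 2, and BBS2 was at -0.08 without dTAGV1 replicate 1 and -0.48 without DMSO replicate 3, none of which passed the test. Exons of CPSF7 share 85 bases with AP003108.2 on the other strand.

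OGFOD1 and BBS2 are transcribed towards each other, and their spans overlap by 12265 bases, of which 220 are exonic in both. The overlap comes through BBS2 transcripts other than the principal one. That one ends at 56484385, outside the OGFOD1 span, which ends at 56479100. Reads in the shared exonic bases fit both genes where strand is ignored. In order of replicate number, OGFOD1 had 358, 461, 461 and 509 counts irrespective of strand with DMSO, and 529, 478, 384 and 378 with dTAGV1. These lie near its sense counts of 372, 473, 469 and 515 with DMSO and 521, 479, 388 and 378 with dTAGV1. Sense and opposite-strand counts together exceeded the counts irrespective of strand by 12 to 34 a library for OGFOD1 and by 12 to 32 for BBS2. Over the group this excess was 94 with DMSO and 96 with dTAGV1 for OGFOD1, whose opposite-strand counts summed to 54 and 99. For BBS2 it was 93 and 83, beside opposite-strand sums of 90 and 74. Which gene the opposite-strand reads came from was not tested. The excess was 0 in all 8 libraries for NUDT21 and CPSF6, and at most 1 for CPSF7.

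The other genes of the 3′ end processing machinery moved in both directions. Of 23 such genes, all tested, 8 rose, 9 fell and 6 did not pass the test, with a median log2 fold change of -0.19 against 0.01 for all tested genes. This count of 17 stands beside the 57.9% of all tested genes that were called, 29.4% higher and 28.5% lower. Of 6 genes of the cleavage and polyadenylation specificity factor CPSF, which recognises the poly(A) signal, 3 rose and 1 fell. CPSF1, its large scaffold, rose by 0.69 on the log2 scale, and CPSF3, the target of JTE-607, had a log2 fold change of -0.40. Of 4 genes of the cleavage stimulation factor CstF, which binds downstream of the cut, 3 fell and none rose. PCF11, the CFIIm subunit that links cleavage to termination, rose by 0.55 from 168 ± 5.38 to 246 ± 20.4 CPM (SD, n = 4 each).

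The largest fall in that list was that of PPP1CB, a catalytic subunit of protein phosphatase 1, with a log2 fold change of -2.19 ± 0.10 (SE). SYMPK, the scaffold symplekin, had one of -0.86 and PPP1CC, another catalytic subunit, one of -0.79. The largest increase was that of PABPN1, which coats new poly(A) tails, with 1.36 ± 0.28 (SE). PABPN1 rested on 2.7 ± 0.73 CPM with DMSO and 6.93 ± 0.79 CPM with dTAGV1 (SD, n = 4 each), and its exons are shared with the read-through gene BCL2L2-PABPN1, so this value is uncertain. The log2 fold change of NUDT21, -1.95, was thus lower than those of 22 of the 23 other genes.

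**Figure D5:**
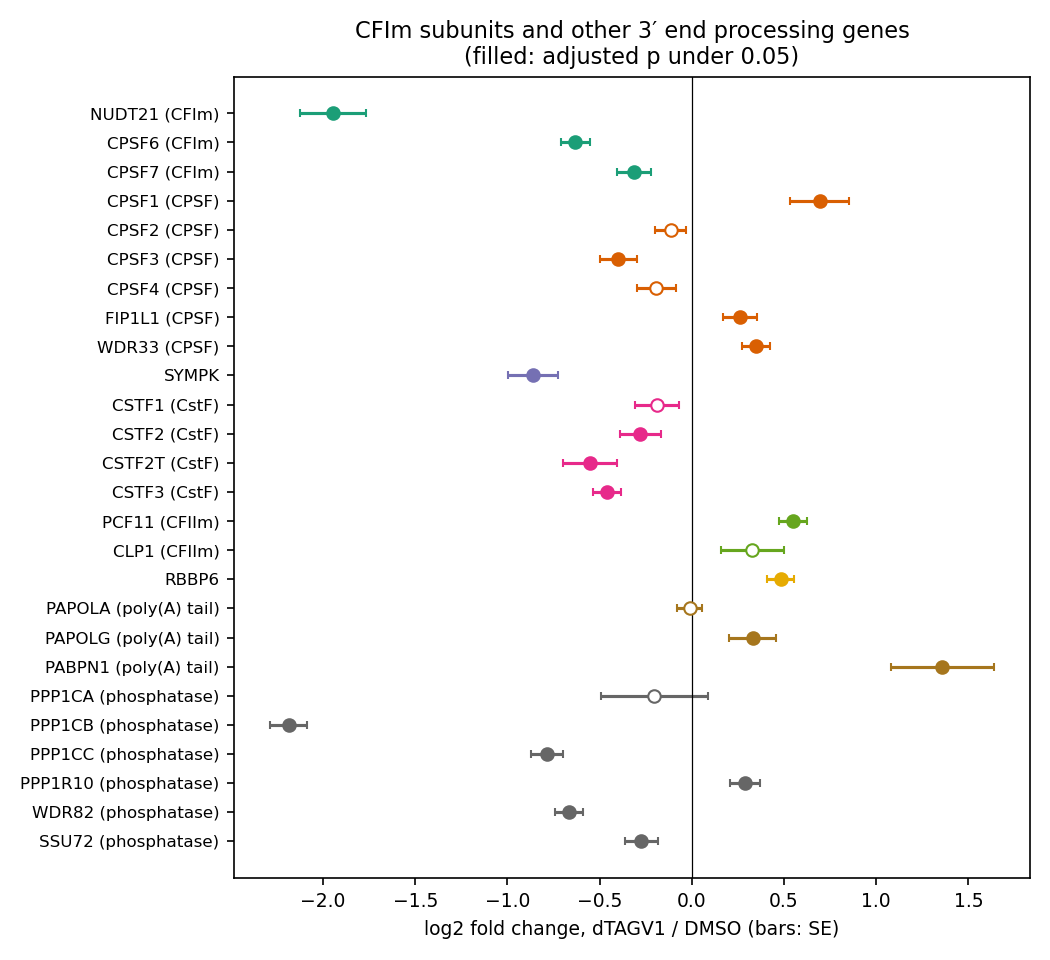
Log2 fold change with dTAGV1 (horizontal axis, bars are standard errors) of the 3 CFIm subunits and 23 other 3′ end processing genes, grouped by complex. Filled points passed an adjusted p of 0.05. The CFIm points lie at -1.95, -0.63 and -0.32, and the other genes lie on both sides of 0.

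The genes whose log2 CPM across the 8 libraries was most like that of each subunit were ranked by Pearson's r among the 9051 named genes that averaged 10 CPM or more. With 2 groups this measure is set mostly by the difference between them, and 1067 genes had an r above 0.9 with NUDT21, 1519 with CPSF6 and 252 with CPSF7. Nearest to NUDT21 were TRIM59, RNF182 and CEP78, each with an r of 0.997 or 0.996 and log2 fold changes of -1.67, -1.58 and -1.35. Nearest to CPSF6 were ANP32E, FAR1 and IDH2, each with an r of 0.999 or 0.998. ANP32E and IDH2 had log2 fold changes of -2.12 and -1.89, and FAR1 went from 68.9 to 34.5 CPM. Nearest to CPSF7 were ULBP3, GTF3C5 and RANGAP1, with an r of 0.988, 0.986 and 0.973 and log2 fold changes of -0.61, -0.51 and -1.08. No gene was among the 3 nearest to more than 1 subunit.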

How the data were processed

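RNA of 8 HCT116 libraries was prepared with the Lexogen QuantSeq forward kit for 3′ ends, per the labels' protocols. The authors deposited whole-number counts for each gene in 3 forms, without regard to strand, sense and antisense. The submitters' processing notes list FastQC, fastp, STAR, HTSeq, DESeq2 and GRCh38 without roles. Versions, annotation and removal of PCR copies are not given in the sources used here. Reads given to no gene stayed out of library sizes and tests. Of 78932 identifiers, 61481 were in the table of gene names and 57302 in GENCODE 29 (GRCh38), which gave coordinates and exons.

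Sense and opposite-strand counts, unchanged, were fitted separately in edgeR 4.0.16 (R 4.3.3) with filterByExpr, TMM scaling and robust quasi-likelihood F tests. Benjamini-Hochberg adjustment ran over all genes tested, with a threshold of 0.05. A positive log2 fold change means more with dTAGV1. Standard errors are the absolute log2 fold change divided by the square root of F. Ratios within libraries (0.5 added to counts) were compared by exact permutation with scipy 1.17.1. Lists were described by counts, with no set test. Members and lists were chosen with earlier results of these data known.

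Genes named are the 5 members, tested genes within 100 kb of NUDT21 (of which 1 is not reported here), genes that overlap a member, the 3 largest changes in each direction among the 23 other processing genes, and the 3 genes most like each subunit (prior count 2). CPSF3, YEATS4, SDHAF2, the metallothionein genes and the markers KRT19 and ELF3 were added after their values were seen. Alternatives were DESeq2 1.42.0, RLE and library-size scaling, 2 other filters, counts irrespective of strand, a replicate term, other distances, a pseudocount of 2, sense library sizes for the opposite strand, and leaving out each library. On counts simulated for this comparison (12422 genes, 200 changed), edgeR recovered 47% of genes changed by 0.5, 84.1% by 1 and 100% by 2 on the log2 scale, with 14 false calls. In the data 57.9% of tested genes were called, a far larger share than was simulated, so these recovery figures need not hold there. Library pairs within a group differed by more than sampling noise (chi-square for each degree of freedom 1.82 to 5.09), and none was treated as a duplicate.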

Additional observations from a re-analysis of the deposited data

Results flagged for a closer look

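In 2 of 28 sets of 4 libraries, 1 value stood far from the other 3, which chance gives in about 1 in 20 sets. Both were dTAGV1 replicate 3, in ratios with NUDT21. The log2 ratio of NUDT21 to CPSF6 was -3.96 there, the lowest of its group. The log2 ratio of NUDT21 to BBS2 was -1.55, also the lowest. This library held 15 NUDT21 counts, and without it these differences between the groups were -1.11 and -1.01.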

How the results depend on the processing

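Of 268 alternative values for 20 results, 256 kept direction and call, or moved by at most 1.5 times (counts of genes) or 1 SD (ratios). NUDT21 ranged from -2.09 to -1.76, CPSF6 from -0.71 to -0.63, CPSF7 from -0.39 to -0.29 and BBS2 from -0.87 to -0.75, and each passed the test in every alternative in which it was tested. With 1 library left out at a time, OGFOD1, which was not called, ranged from -0.03 to 0.20 and turned negative without dTAGV1 replicate 1 (-0.028) or 2 (-0.019). Its opposite-strand counts ranged from 0.56 to 1.06. The latter lost its call with DESeq2 at 0.85 (adjusted p = 0.0542) and without a filter at 0.80 (edgeR, Benjamini-Hochberg adjusted p = 0.0784), and the cause was not tested. With a mean of at least 100 counts, fewer genes were tested: 4120 were called, of which 4031 were among the original calls, and 1 gene within 100 kb of NUDT21 was called in place of 2. Within 250 kb, 6 genes near NUDT21 and 1 near CPSF6 were called, since more genes were counted. Library-size scaling shifted all log2 fold changes by a median of -0.07. Deviations of same-numbered libraries correlated at 0.131, -0.0176, 0.0232 and 0.0340, so the numbers were not taken to pair them. With the replicate block, 7434 genes were called in place of 7302 on the sense strand and 1658 in place of 1610 on the opposite strand, and no call of a member changed. For ratios, 3 libraries against 4 cannot go below an exact permutation p of 0.0571, nor 4 pairs below 0.125, so those values carry no test.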

Other observations

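Beyond BBS2, on the side away from NUDT21, lies the metallothionein cluster, whose genes encode small metal-binding proteins and have near-identical copies, so that their counts are uncertain. Of the 7 genes tested within 250 kb of NUDT21, 5 fell, and 4 of these were metallothionein genes, named here after their values were seen. These 4 lie on the plus strand, like OGFOD1. Over all tested genes, 57.9% were called and 28.5% were called lower. MT2A fell from 2053 ± 294 to 1127 ± 174 CPM and MT1X from 26.7 ± 1.83 to 11.4 ± 2.78 CPM (SD, n = 4 each), with log2 fold changes of -0.87 and -1.23 (edgeR, Benjamini-Hochberg adjusted p = 9.65e-05 and 6.50e-07). MT1E and MT1F had log2 fold changes of -1.03 and -0.60 (edgeR, Benjamini-Hochberg adjusted p = 0.0164 and 0.0457). The groups of MT1F overlapped, and it had 29 to 41 counts a library with DMSO and 12 to 31 with dTAGV1.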
